A study of Mus musculus with 16 samples.

Results

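Vehicle-treated 4T1 cells, a highly metastatic mouse mammary carcinoma line, were compared with vehicle-treated cells of the non-metastatic line 67NR. The comparison used the samples labelled as vehicle control, 4 of 4T1 and 4 of 67NR, which are 8 of the 16 samples in the series. Of 33072 listed genes, 12540 reached 1 TPM (transcript abundance corrected for gene length and depth) in at least 4 of the 8 samples and were tested.

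Both lines derive from a spontaneous mammary carcinoma of a BALB/c mouse, and each is a single established line, so any property of a line is shared by all of its samples. Cells of both groups were grown in DMEM with 10% serum and received the solvent DMSO for 24 h, and the labels give no added gene or deletion for either. The other 8 samples received 15 µM CIX, an inhibitor of cytosolic phospholipase A2α (cPLA2α), for the same time, and serve here only as a separate set of both lines. RNA was read by poly(A)-selected sequencing, and the samples carry no age, passage or culture date in the labels.

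Epithelial cells hold to their neighbours through E-cadherin, claudins and other junction proteins and are stiffened by keratin filaments. In the epithelial-mesenchymal transition (EMT), transcription factors of the Snail, Zeb and Twist families repress these genes, and cells gain N-cadherin, vimentin and fibrillar matrix. The 4T1 series of lines is widely used as a model of breast cancer spread because its members share an origin and differ in how far they disseminate.

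Total estimated counts were 22483670 to 23875921 in the 4T1 samples and 21811766 to 24656898 in the 67NR samples, so both lines were read to a like depth. The pairwise correlation of log2 levels across genes was 0.967 to 0.983 within 4T1, 0.975 to 0.990 within 67NR and 0.671 to 0.700 between them, and the first principal component, with 90.8% of the variance, separated the lines. By the chi-square of counts per gene, the most distant pair within a line was 4T1 samples 3 and 11, at 125. Next was 67NR sample 13 with sample 1, at 115, while 67NR samples 1, 5 and 9 were 18.5 to 22.2 apart. In 67NR sample 13, 61 genes were at least 4-fold above the other 67NR samples, against 4 to 14 genes in each other sample. Sample 9, close to samples 1 and 5, held low counts of genes abundant in 4T1, such as 41 counts of Krt18 against 0 to 3 in the other 67NR samples. The source of either was not tested.

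A gene was called at a limma-voom adjusted p below 0.001, the threshold the study used. Levels are TPM scaled between samples, which can be compared between genes and samples, and a fold change is 4T1 over 67NR. In these samples 5821 genes were called, 46.4% of those tested, with 2970 (23.7%) higher and 2851 (22.7%) lower in 4T1. Their median absolute log2 fold change was 1.53, 4246 were beyond 1 and 1542 beyond 3, of which 933 were higher and 609 lower. The 4 levels of one line lay wholly above those of the other for 8263 genes, 65.9% of those tested. Among the 10283 genes with at least 1 TPM in all 8 samples, 4236 (41.2%) were called, 2043 higher and 2193 lower. A further 849 genes were tested through 4T1 alone and 550 through 67NR alone, and such genes had to differ to be tested. The call count was 5390 without 67NR sample 13 and 4874 without 67NR sample 9. Where bulk RNA is measured, fewer cells of a type and less RNA per cell cannot be told apart.

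**Figure D1:**
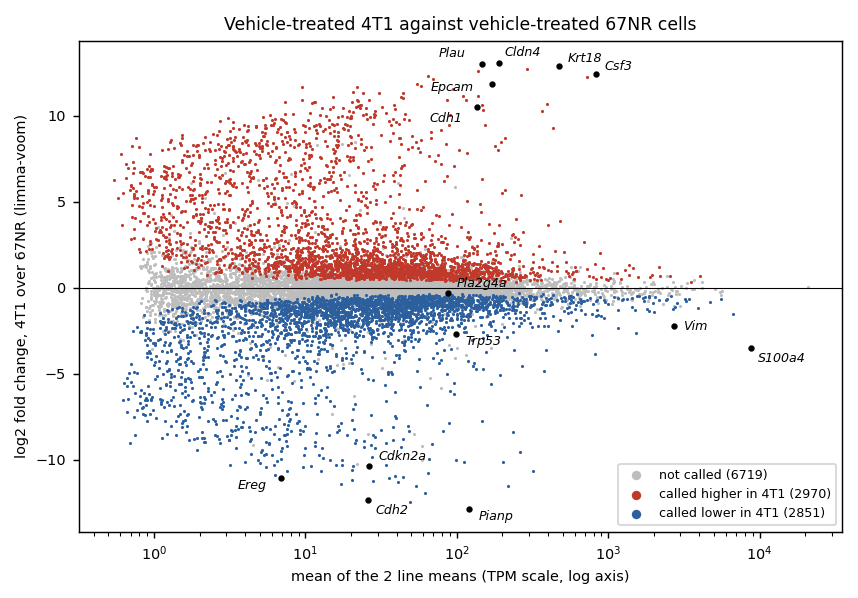
Log2 fold change (4T1 over 67NR, vertical axis) of the 12540 tested genes against the mean of the line means in TPM (log axis). Red points are the 2970 genes called higher in 4T1, blue the 2851 called lower and gray those not called, and named genes are marked in black, with epithelial genes and Csf3 at the top and Cdh2, Cdkn2a, Ereg and Pianp at the bottom.

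Most tested epithelial genes were near 0 in 67NR and passed the filter through 4T1, where they were high. Of 31 tested members of a 41-gene list of junction and keratin genes, 28 were called higher in 4T1 and 0 lower, beside 23.7% and 22.7% of all tested genes, with a median log2 fold change of 8.32 against -0.02 over all tested genes. Only 4 of the 31 were above 1 TPM in all 8 samples, and 2 of these were called higher. The median and the call count therefore rest mostly on genes that had to differ to be tested. The summed level of the list was 4144 to 4518 TPM in 4T1 and 101 to 119 TPM in 67NR.

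Promoters of members of this list were searched for CACCTG, an E-box form that EMT factors can bind. The RefSeq promoter table (GRCm38.p6) held 24 of the 41 genes, and 15 of them (62.5%) had CACCTG or its reverse complement CAGGTG within 250 bases upstream of a start site. The share was 19.4% over all 27025 genes with a promoter, 8 of 15 (53.3%) among epithelial regulators and 1 of 24 (4.17%) among mesenchymal and matrix genes. These are letter matches and not measured binding sites, and these spellings are 1 motif read on opposite strands. Whether they bear on the difference between the lines was not tested. The promoter table held no entry for Cdh1. For Ocln, the stretch chr13:100552719-100552968 had 0 motifs and the stretch chr13:100552499-100552748 had 2. The 250 bases before the start sites of 4 genes chosen with the motif follow, 5′ to 3′ on the strand of the gene with the motif in capitals. They lie at chr17:87635729-87635978 (plus strand) for Epcam, chr15:102027966-102028215 (plus) for Krt18, chr15:102004343-102004592 (minus) for Krt8 and chr5:134946935-134947184 (minus) for Cldn4. In the gene models used for the levels, Krt8 starts at 102004482 on the minus strand, so its marked motif lies inside that model. The Krt18 stretch overlaps its model, which starts at 102028180, but its motif lies before that start.

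Epcam: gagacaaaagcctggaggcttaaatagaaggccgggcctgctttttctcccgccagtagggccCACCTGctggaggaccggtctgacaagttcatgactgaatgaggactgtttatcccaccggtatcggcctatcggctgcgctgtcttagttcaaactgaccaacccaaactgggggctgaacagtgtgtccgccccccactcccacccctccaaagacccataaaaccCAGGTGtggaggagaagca
Krt18: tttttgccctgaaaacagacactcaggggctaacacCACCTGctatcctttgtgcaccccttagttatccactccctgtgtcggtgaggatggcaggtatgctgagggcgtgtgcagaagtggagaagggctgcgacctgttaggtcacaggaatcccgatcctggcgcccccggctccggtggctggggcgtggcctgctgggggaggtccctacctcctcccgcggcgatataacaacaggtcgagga
Krt8: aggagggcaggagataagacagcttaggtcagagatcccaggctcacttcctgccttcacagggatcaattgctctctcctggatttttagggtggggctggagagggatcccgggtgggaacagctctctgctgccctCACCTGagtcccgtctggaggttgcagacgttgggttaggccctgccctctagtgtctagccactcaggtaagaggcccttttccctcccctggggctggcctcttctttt
Cldn4: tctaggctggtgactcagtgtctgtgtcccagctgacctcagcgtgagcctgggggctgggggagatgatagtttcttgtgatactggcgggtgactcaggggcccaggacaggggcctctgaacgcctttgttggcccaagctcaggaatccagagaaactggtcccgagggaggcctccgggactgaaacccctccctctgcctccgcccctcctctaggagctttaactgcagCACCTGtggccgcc

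Epcam, on chromosome 17 and encoding an epithelial adhesion molecule, was at 346, 336, 332 and 344 TPM in 4T1 samples 3, 7, 11 and 15, and at 0, 0.0947, 0.343 and 0.0410 TPM in 67NR samples 1, 5, 9 and 13. Every 4T1 sample was far above every 67NR sample, and the log2 fold change was 11.84 ± 0.568 (SE, n = 4 per line, limma adjusted p = 2.07e-07), with 11.17 without 67NR sample 1 and 12.55 without 67NR sample 9. Sample order is the same in all lists of levels that follow.

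Cdh1, encoding E-cadherin, was at 218, 287, 297 and 277 TPM in 4T1 and at 0.106, 0.0993, 0.428 and 0.200 TPM in 67NR. The lines did not overlap, with a log2 fold change of 10.47 ± 0.441 (limma adjusted p = 1.12e-07). Cldn4, which encodes a tight junction claudin, was at 345, 390.2, 453 and 341 TPM in 4T1 and at 0, 0, 0.366 and 0.0257 TPM in 67NR, where the highest value was again that of sample 9. Its log2 fold change was 13.05, and 14.12 without that sample.

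The keratins of simple epithelia, Krt8 and Krt18, pair into filaments and lie side by side on chromosome 15. Krt18 was at 987, 891, 967 and 941 TPM in 4T1 and at 0.0339, 0, 1.46 and 0.128 TPM in 67NR, a log2 fold change of 12.89 that became 14.16 without 67NR sample 9 and 12.08 without 67NR sample 5. Krt8 was at 465, 285, 315 and 360.0 TPM in 4T1 and at 1.06, 1.29, 1.52 and 0.828 TPM in 67NR, with a log2 fold change of 8.23. Both genes share sequence with other transcripts, 11.4% of the 31-base words of Krt18 and 32.3% of those of Krt8, so the split of their reads is less certain. Krt14, a basal keratin, was too low to be tested, at a mean of 0.494 TPM in 4T1 and 0.0203 TPM in 67NR.

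Of 21 tested regulators of the epithelial state on a 28-gene list, 19 (90.5%) were called higher in 4T1 and 1 lower, with a median log2 fold change of 7.65, or 7.41 with the members at 0 in 67NR set to their bound. Of the 7 read above 1 TPM throughout, 5 were higher and 1 lower. Esrp2, an epithelial splicing regulator, was at 40.8, 66.1, 159.5 and 45.9 TPM in 4T1 and at 0.342, 0, 0 and 0.0131 TPM in 67NR. These ranges were far apart, but the call (limma adjusted p = 0.000356) was lost without 67NR sample 5, 9 or 13 or 4T1 sample 3 or 7, with an adjusted p of 0.00287 without sample 13. Spint2, an inhibitor of surface proteases, was at a mean of 229 ± 12.9 TPM (SD, n = 4) in 4T1 and 0.207 ± 0.221 TPM in 67NR, and the transcription factor Elf3 had a log2 fold change of 9.85, or 10.60 without 67NR sample 9. Klf4, also on this list, was the member called lower, at 11.6 ± 3.13 TPM in 4T1 and 83.7 ± 12.7 TPM in 67NR.

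**Figure D2:**
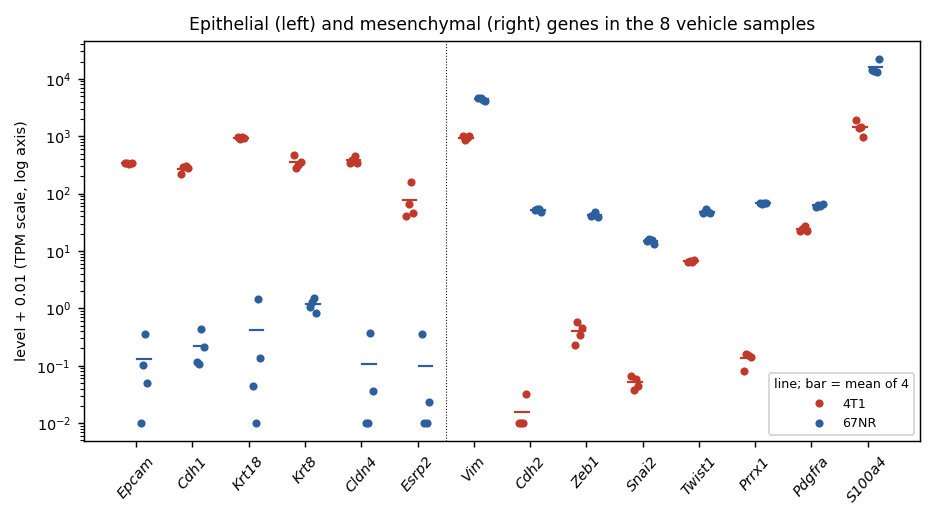
Levels of 6 epithelial genes (left of the dotted line) and 8 mesenchymal genes (right) in the 8 vehicle samples, on a log axis in TPM with 0.01 added so that zeros show. Each point is a sample (red 4T1, blue 67NR) and each bar the mean of 4, and in all 14 genes the points of the lines are apart.

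Of 13 tested EMT transcription factors on a 17-gene list, 7 (53.8%) were called lower in 4T1 and 1 (7.69%) higher, beside 22.7% and 23.7% of all tested genes. The median log2 fold change was -2.02. Of the 7 above 1 TPM in all samples, 2 were lower and 0 higher. Zeb1, a repressor of E-cadherin, was at 0.218, 0.576, 0.331 and 0.448 TPM in 4T1 and at 40.1, 41.7, 47.7 and 39.5 TPM in 67NR. Snai2, the Snail family member Slug, was at 0.0552, 0.0285, 0.0498 and 0.0349 TPM in 4T1 and at 15.1, 15.9, 15.6 and 13.5 TPM in 67NR. Neither gene overlapped between the lines, and the log2 fold changes were -6.78 and -8.20.

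Prrx1 had 0.0723, 0.149, 0.145 and 0.130 TPM in 4T1 against 67.7, 67.1, 69.2 and 69.5 TPM in 67NR, the tightest of these factors in 67NR. Twist1, in contrast, was read in both lines, at 6.39, 6.57, 6.35 and 6.90 TPM in 4T1 and at 46.6, 53.9, 48.3 and 46.1 TPM in 67NR, a 7.41-fold lower level (limma adjusted p = 7.18e-08). Foxc2 was the 1 member called higher in 4T1, at 4.35 ± 1.00 TPM and at 0 counts in all 67NR samples, at least 68.4-fold when 67NR is set to 3 counts per sample. Tbx3 had the opposite pattern, with 0 counts in 4T1 and 4.36 ± 0.558 TPM in 67NR, at least 82.7-fold lower.

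Of the mesenchymal and fibrillar matrix genes, those that passed the test were all lower in 4T1. Of 25 tested members of a 44-gene list, 16 (64.0%) were called lower and 0 higher, beside 22.7% and 23.7% of all tested genes, and of 13 above 1 TPM throughout 6 were lower and 0 higher. Their summed level was 3231 to 3825 TPM in 4T1 and 20255 to 28936 TPM in 67NR, a gap carried by S100a4, Vim and Sparc. Without these 3 the sums were 831 to 1178 TPM in 4T1 and 1086 to 1162 TPM in 67NR, which overlap. Vim, the intermediate filament vimentin, was at 1002, 865, 927 and 997 TPM in 4T1 and at 4714, 4684, 4340.4 and 4102 TPM in 67NR. It was thus abundant in both lines and 4.71-fold lower in 4T1 (log2 fold change -2.24 ± 0.0761, limma adjusted p = 6.23e-08).

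Cdh2, encoding N-cadherin, was at 0, 0, 0 and 0.0217 TPM in 4T1 and at 51.0, 54.0, 54.3 and 47.9 TPM in 67NR. The 4T1 samples held 2 counts of it in all, which puts the ratio of levels at 9560 with a 95% counting interval of 2650 to 79000. Pdgfra, a growth factor receptor of mesenchymal cells, remained readable in 4T1 at 22.6, 24.4, 26.8 and 22.3 TPM, against 58.8, 63.5, 61.5 and 65.3 TPM in 67NR. Its sister receptor Pdgfrb had 1 count in the 4T1 samples together and 12.6 ± 1.80 TPM in 67NR.

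S100a4, a calcium-binding protein also called fibroblast-specific protein, was the most abundant of these genes. It was at 1890.2, 1403, 1446 and 965 TPM in 4T1 and at 14514, 13938, 13256 and 22248 TPM in 67NR, 11.3-fold lower in 4T1, with sample 13 above the other 67NR samples. Without that sample the log2 fold change went from -3.49 to -3.30, and 49.2% of the gene's 31-base words are shared with the overlapping gene model Gm42674. Sparc, a matrix glycoprotein, was at 105 ± 12.1 TPM in 4T1 and 1529 ± 67.7 TPM in 67NR, and the muscle and stromal filament gene Des at 0.0516 and 22.9 TPM.

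Of 16 tested basement membrane genes, 8 (50%) were called higher and 2 (12.5%) lower in 4T1, beside 23.7% and 22.7% of all tested genes, and 14 were above 1 TPM throughout with 7 higher and 1 lower. The laminin chain Lama5 was at 351 ± 66.7 TPM in 4T1 and at 28.1 ± 4.70 TPM in 67NR. Col18a1, whose product is a basement membrane collagen, was 12.5-fold higher, while Nid1, which links laminin to collagen IV, was lower at 3.58 against 15.4 TPM.

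Of 16 tested integrin subunits, 8 were called higher and 5 lower (81.2% called, beside 46.4% of all tested genes), and among the 12 above 1 TPM throughout 4 were higher and 5 lower. Itga2, a collagen receptor chain, was at 15.6, 8.86, 8.09 and 14.4 TPM in 4T1 and at 0, 0, 0.0271 and 0 TPM in 67NR. The single 67NR sample with counts was sample 9, and the ratio of levels was 1730 with a 95% counting interval of 480 to 14300. Itgb4, part of the hemidesmosome, was at 40.8 ± 3.52 TPM in 4T1 and 3.73 ± 0.946 TPM in 67NR, and Itga5, the fibronectin receptor chain, at 22.7 ± 2.38 and 64.5 ± 2.78 TPM.

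The list of matrix proteases and inhibitors was split, with 10 of 28 tested genes (35.7%) higher and 6 (21.4%) lower, beside 23.7% and 22.7% of all tested genes. Of the 20 above 1 TPM throughout, 5 were higher and 4 lower. Plau, encoding urokinase, which activates plasmin, was at 299.5, 307, 287 and 286 TPM in 4T1 and at 0, 0, 0.534 and 0 TPM in 67NR. Sample 9 was again the 67NR sample with counts, and the log2 fold change of 12.99 became 14.34 without it. Mmp9, the gelatinase B gene, was at 126, 63.4, 50.8 and 82.3 TPM in 4T1 and at 0.851, 1.79, 1.96 and 3.11 TPM in 67NR, 43.2-fold higher (limma adjusted p = 2.12e-05). The inhibitor Timp2 was lower in 4T1, at 200.2 ± 6.07 against 550.1 ± 22.6 TPM, and the protease inhibitor Reck at 0.615 against 3.90 TPM.

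Of 33 tested chemokines and cytokines, 19 (57.6%) were called higher and 7 (21.2%) lower, beside 23.7% and 22.7% of all tested genes, and of 18 above 1 TPM throughout 9 were higher and 2 lower. Csf3, the granulocyte growth factor G-CSF, was at 2979.5, 1249, 911 and 1463 TPM in 4T1 and at 0.0381, 0.0842, 2.10 and 0.397 TPM in 67NR. It was among the most abundant transcripts called higher in 4T1 beyond a log2 fold change of 1. The 4T1 samples themselves ranged widely, and its log2 fold change was 12.44 ± 1.39 (limma adjusted p = 3.4e-05). This value was 13.50 without 67NR sample 9 and 11.69 without 67NR sample 1. Cxcl1, which attracts neutrophils, was at 606, 314, 272 and 377 TPM in 4T1 and at 8.11, 7.74, 8.49 and 8.27 TPM in 67NR, 45.8-fold higher.

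Cxcl16 and Il1a were also near 0 in 67NR, at 305 ± 32.7 and 177 ± 83.2 TPM against 0.474 and 0.267 TPM. Cxcl12, a stromal chemokine, had the opposite pattern, at 0, 0.0240, 0.0110 and 0 TPM in 4T1 and at 19.7, 19.3, 23.8 and 14.2 TPM in 67NR. Its ratio was 2210 with a 95% counting interval of 610 to 18200. Ccl7, a monocyte attractant, was likewise lower in 4T1, at 0.216 against 13.7 TPM. The lymphatic growth factors divided, with Vegfc at 10.6 ± 1.86 TPM in 4T1 and 0 counts in 67NR, and Vegfd at 0.344 and 5.57 TPM.

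Of 13 tested genes of the EGF family, ligands and their receptors, the ERBB kinases, 3 were called higher and 5 lower (61.5% called, beside 46.4% of all tested genes), and of the 7 above 1 TPM throughout 0 were higher and 3 lower. Areg, amphiregulin, was at 54.5, 23.8, 19.8 and 28.9 TPM in 4T1 and at 0.122, 0.425, 0.161 and 0.0759 TPM in 67NR, a log2 fold change of 7.23. Ereg, epiregulin, was at 0 TPM in every 4T1 sample and at 13.2, 13.6, 13.5 and 15.1 TPM in 67NR, at least 347-fold lower. Tgfa was higher in 4T1, at 24.7 against 0.206 TPM, and Nrg1, Nrg2 and Btc were lower, at 8.20 against 46.8, 0.776 against 20.7 and 2.80 against 15.3 TPM. Erbb2 did not pass the test, at 14.7 ± 1.48 and 18.6 ± 2.29 TPM (limma adjusted p = 0.0266), whereas Erbb3 was higher, at 7.26 against 0.428 TPM.

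In the TGF-beta list, 11 of 34 tested genes were called higher and 6 lower, 50% in all and near the 46.4% of all tested genes, and of 31 above 1 TPM throughout 9 were higher and 6 lower. Ltbp4, which stores latent TGF-beta in the matrix, was at 18.7 ± 1.73 TPM in 4T1 and 1.52 ± 0.281 TPM in 67NR. Tgfbr3, the coreceptor betaglycan, was at 6.64 ± 1.27 and 68.2 ± 1.52 TPM, and the target Id2 at 11.3 ± 1.80 and 50.3 ± 6.23 TPM, both lower in 4T1. Of 22 tested Wnt pathway genes 11 (50%) were higher and 6 (27.3%) lower, beside 23.7% and 22.7% of all tested genes, but of the 15 above 1 TPM throughout 5 were higher and 5 lower. The ligand Wnt7a was at 25.0 ± 11.1 TPM in 4T1 with 0 counts in 67NR, at least 181-fold, and the receptor Fzd6 at 37.4 against 0.0579 TPM. Axin2, a feedback target of the pathway, was lower, at 0.0353 against 2.52 TPM.

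The study centred on cPLA2α, encoded by Pla2g4a, which releases arachidonic acid from membranes, and on the prostaglandin E2 made from it. Pla2g4a (chr1:149829618-149961290, GRCm38) did not pass the test between the lines. Its levels were 48.6, 69.1, 117 and 43.2 TPM in 4T1 and 45.0, 61.0, 57.7 and 255 TPM in 67NR. The ranges overlapped, and 67NR sample 13 was far above its group. The log2 fold change was -0.31 ± 0.538 (limma adjusted p = 0.627), and without sample 13 it was 0.27 (adjusted p = 0.50).

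The cyclooxygenases, which convert arachidonic acid to the prostaglandin precursor, differed in opposite directions. Ptgs2, the inducible enzyme COX-2 (chr1:150100031-150108227), was at 251, 209.8, 207 and 239 TPM in 4T1 and at 42.7, 35.4, 41.1 and 53.5 TPM in 67NR, 5.29-fold higher (log2 fold change 2.40 ± 0.126, limma adjusted p = 3.29e-07). Ptgs1, the constitutive COX-1, was at 103, 103, 99.7 and 111 TPM in 4T1 and at 491, 558, 488 and 546 TPM in 67NR, 4.99-fold lower (log2 fold change -2.32 ± 0.0758, limma adjusted p = 5.42e-08). Within 4T1 the Ptgs2 levels were above the Ptgs1 levels in all 4 samples, and within 67NR the Ptgs1 levels were above the Ptgs2 levels in all 4.

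Ptges, the inducible prostaglandin E synthase, was at 34.2, 11.7, 8.05 and 12.7 TPM in 4T1 and at 45.9, 55.9, 54.2 and 57.4 TPM in 67NR. The lines did not overlap, but 4T1 sample 3 was well above its group. The log2 fold change was -1.89 ± 0.337 (limma adjusted p = 0.000742), and the call was lost under edgeR (adjusted p = 0.0047) and without any one sample other than 4T1 sample 3. Over the list, 6 of 24 tested genes were called higher and 10 (41.7%) lower, beside 23.7% and 22.7% of all tested genes, with 5 higher and 5 lower among the 16 above 1 TPM throughout. Alox5ap, which presents arachidonic acid to 5-lipoxygenase, was lower in 4T1, at 1.37 ± 0.827 against 50.3 ± 4.55 TPM. The prostacyclin receptor Ptgir had 1 count in the 4T1 samples together and 421 in 67NR, and the exporter Abcc4 was 3.46-fold higher in 4T1.

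The study followed innate immune genes under CIX. In the list of Toll-like receptors (TLR), adaptors and kinases, 14 of 30 tested genes (46.7%) were called higher in 4T1 and 3 (10.0%) lower, beside 23.7% and 22.7% of all tested genes, and 13 and 2 of the 26 above 1 TPM throughout. Tlr3, the receptor for double-stranded RNA, was at 36.9, 38.4, 35.4 and 45.2 TPM in 4T1 and at 2.47, 2.74, 3.37 and 1.84 TPM in 67NR, 15.1-fold higher (limma adjusted p = 2.18e-07). Tlr4, the receptor for lipopolysaccharide, was at 34.8, 33.1, 32.0 and 31.1 TPM in 4T1 and at 24.9, 35.2, 31.04 and 30.3 TPM in 67NR. The Tlr4 levels overlapped and did not pass the test (log2 fold change 0.12 ± 0.112, limma adjusted p = 0.358).

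Tlr2 was 17.9-fold higher in 4T1, at 15.0 ± 2.38 against 0.823 ± 0.0822 TPM. The adaptors Myd88 and Tirap were 3.64-fold and 7.74-fold higher, with means of 45.7 and 71.9 TPM in 4T1. Rel, an NF-kB subunit, was at 4.76 ± 0.549 and 1.80 ± 0.0854 TPM, higher in 4T1, while Irak3, a brake on TLR signaling, was lower, at 0.458 against 6.79 TPM. Tlr9, the receptor for unmethylated DNA, was below the test limit in both lines, at 0.405 ± 0.00781 and 0.00368 ± 0.00736 TPM (exact permutation test, 2-sided, p = 0.0286, the smallest that 4 against 4 samples allow).

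Of 50 tested interferon response genes, 36 (72.0%) were called higher in 4T1 and 4 (8.0%) lower, beside 23.7% and 22.7% of all tested genes, with a median log2 fold change of 1.99. Of 34 above 1 TPM throughout, 23 were higher and 4 lower. Irf7, which amplifies the interferon response, was at 46.7, 31.4, 41.2 and 77.2 TPM in 4T1 and at 0.704, 0.799, 1.07 and 1.46 TPM in 67NR, a log2 fold change of 5.57. Stat2, part of the interferon-activated transcription factor, was at 72.2, 59.4, 55.5 and 92.6 TPM in 4T1 and at 18.1, 19.0, 16.5 and 19.2 TPM in 67NR, 3.78-fold higher. Its partner Irf9 was 8.95-fold higher.

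Irf3, which acts upstream by switching on interferon genes, was among the 4 members called lower. It was at 16.6, 18.0, 21.1 and 21.2 TPM in 4T1 and at 66.8, 76.9, 64.0 and 85.7 TPM in 67NR, 3.79-fold lower and with no overlap. Ifih1, the cytosolic RNA sensor MDA5, was at 51.8, 42.3, 33.3 and 56.4 TPM in 4T1 and at 0, 0.0223, 0.0421 and 0.0570 TPM in 67NR. The antiviral gene Rsad2 was at 10.7 ± 5.34 TPM in 4T1 against 0.0386 TPM, and Ifit2 was another lower member, at 15.1 ± 1.61 against 52.0 ± 3.92 TPM. Stat6, which serves interleukin 4 signaling, did not pass the test, at a log2 fold change of 0.09.

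Major histocompatibility complex (MHC) class I presentation genes were called higher for 15 of 24 tested members (62.5%) and lower for 2 (8.33%), beside 23.7% and 22.7% of all tested genes, and for 12 and 2 of the 21 above 1 TPM throughout. The 15 higher calls became 13 and the 2 lower calls became 1 without 67NR sample 13, and likewise without 67NR sample 9. The immunoproteasome subunit Psmb8, which shapes peptides for presentation, was at 43.9, 40.3, 42.9 and 51.4 TPM in 4T1 and at 0.0591, 0.135, 0.0938 and 0.0597 TPM in 67NR. The lines were far apart, with a log2 fold change of 8.87 (limma adjusted p = 1.69e-07). Its partner Psmb9 was 12.1-fold higher. H2-T23 was at 274 ± 31.1 TPM in 4T1 and 10.0 ± 4.01 TPM in 67NR, and H2-M3 was lower, at 42.5 ± 6.25 against 83.9 ± 5.60 TPM. Class I genes share sequence, 24.5% of the 31-base words of H2-T23 and 39.1% of those of H2-Q7, so levels of single genes are uncertain.

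Tumor suppressors and inhibitors of the cell cycle were lower in 4T1 for 11 of 31 tested genes and higher for 3, and the 45.2% called was near the 46.4% of all tested genes. Trp53, encoding p53, was at 30.9, 27.0, 21.1 and 27.9 TPM in 4T1 and at 160.0, 175, 176 and 173 TPM in 67NR, 6.45-fold lower (log2 fold change -2.69 ± 0.111, limma adjusted p = 1.05e-07). The transcript level does not say whether the protein is made or intact. Cdkn2a, the locus of p16 and p19ARF, was at 0, 0.0632, 0 and 0 TPM in 4T1 and at 54.9, 55.3, 50.6 and 49.6 TPM in 67NR. The 4T1 samples held 1 count of it in all, and the ratio was 3330 with a 95% counting interval of 597 to 131000.

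Ccnd1, the G1 cyclin D1, was at 370.1, 175, 113 and 207 TPM in 4T1 and at 1411, 1405, 1328 and 1248 TPM in 67NR, 6.83-fold lower. Rbl1, a retinoblastoma family member, was at 5.88 ± 0.947 and 29.7 ± 1.79 TPM, and the chromatin remodeler Smarca4 was among the 3 higher genes, at 91.2 ± 3.21 against 39.2 ± 0.881 TPM. Genes of G2, mitosis and proliferation were divided, with 9 of 40 tested genes higher and 8 lower (42.5% called, beside 46.4% of all tested genes) and a median log2 fold change of 0.05. Aurka and Cenpe, which act in mitosis, were 113 ± 6.76 and 115 ± 19.0 TPM in 4T1 and 47.7 ± 3.48 and 43.4 ± 7.76 TPM in 67NR. Foxm1, a transcription factor of the same genes, was lower, at 83.4 ± 6.25 against 198 ± 9.83 TPM. The 8 lower calls became 5 without 67NR sample 13 and 4 without 67NR sample 9.

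Glycolysis and hypoxia response genes were called higher in 4T1 for 21 of 34 tested members (61.8%) and lower for 1 (2.94%), beside 23.7% and 22.7% of all tested genes, and for 17 and 1 of the 30 above 1 TPM throughout. Car12, a carbonic anhydrase, was at 37.3, 50.5, 46.8 and 43.5 TPM in 4T1 and at 0, 0, 0.0461 and 0.0854 TPM in 67NR. Pdk1, a pyruvate dehydrogenase kinase, was at 40.1, 70.02, 83.5 and 66.0 TPM in 4T1 and at 0.965, 2.65, 4.64 and 1.25 TPM in 67NR, 31.6-fold higher. Neither gene overlapped between the lines. The glycolytic isoform Aldoc was at 206 ± 43.6 against 0.866 ± 0.629 TPM, while its paralog Aldoa, at 3061 ± 619 and 1297 ± 161 TPM, was high in both. Adm, adrenomedullin, was the 1 member called lower, at 4.38 ± 2.64 against 72.1 ± 8.20 TPM.

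**Figure D3:**
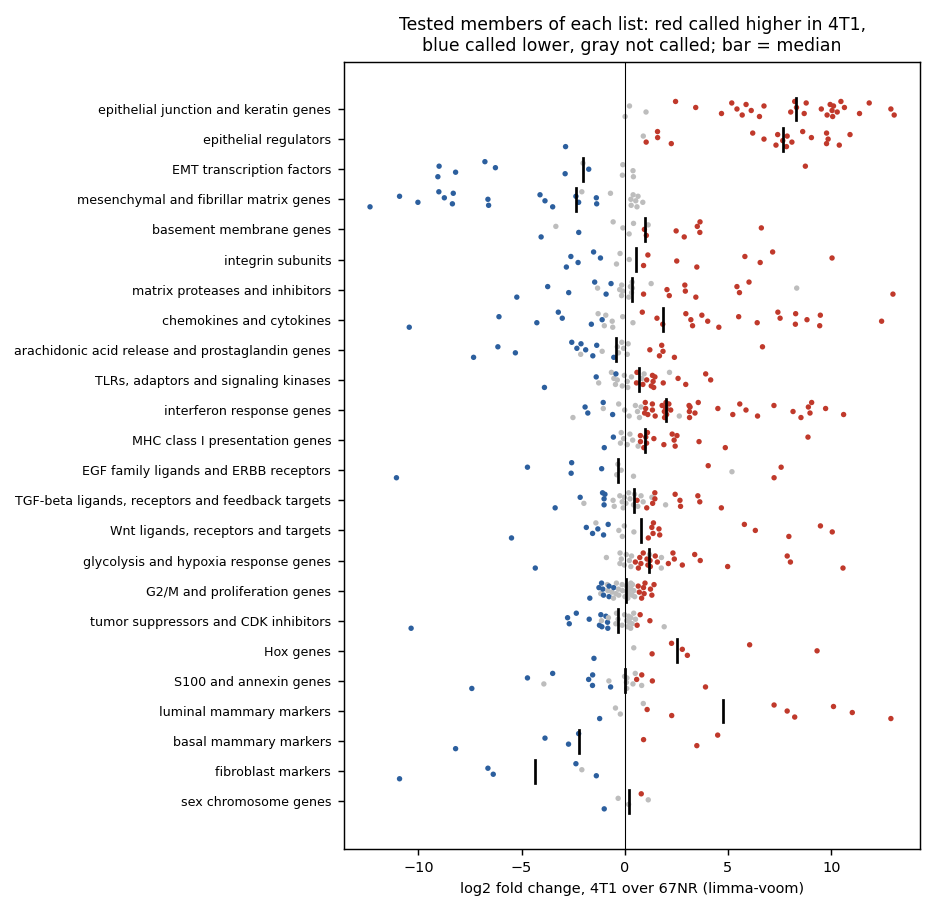
Log2 fold change (4T1 over 67NR) of the tested members of 24 gene lists, each point a gene, red called higher in 4T1, blue called lower, gray not called, with the median of each list as a bar. The epithelial lists lie at medians of 8.32 and 7.65, fibroblast markers at -4.37, and most signaling lists spread on both sides of 0.

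Of 12 tested luminal mammary markers 8 were called higher in 4T1 and 1 lower, of 7 basal markers 3 higher and 4 lower, and of 6 fibroblast markers 0 higher and 5 lower, beside 23.7% and 22.7% of all tested genes. Many of these were tested through the line where they are high, and above 1 TPM throughout were 5 luminal markers with 1 higher and 1 lower, 6 basal with 3 and 3, and 1 fibroblast marker, which was lower. The estrogen receptor gene Esr1 was low in both, at 2.94 ± 0.390 and 0.621 ± 0.231 TPM (limma adjusted p = 3.01e-05), and the progesterone receptor gene Pgr had 0 counts in 4T1 and 2 in 67NR. Dcn, a defining fibroblast gene, was under the test limit at 0.460 ± 0.179 TPM in 67NR. Procr, listed with basal markers, was higher in 4T1, at 111 ± 9.01 against 4.92 ± 0.579 TPM, and Mylk lower, at 2.15 ± 0.575 against 14.0 ± 0.513 TPM.

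Of the markers of cells that a pure line should lack, most were under 1 TPM in all 8 samples, namely 20 of 23 immune, 8 of 12 endothelial and 5 of 8 adipocyte markers. The endothelial gene Esam was at 74.1 TPM in 4T1 sample 7 and at 0.345, 0.677 and 1.202 TPM in the other 4T1 samples, a difference whose source was not tested. The pan-leukocyte gene Ptprc was at 0.531 ± 0.0905 TPM in 4T1 and 0.0206 ± 0.0164 TPM in 67NR, and the endothelial genes Pecam1 and Cdh5 were under 1 TPM on average in both. The adipocyte gene Adipoq had 1 count in 4T1 and 0 in 67NR. Of 3 tested immune markers 2 were called higher and 1 lower, of 2 endothelial markers 1 each way, and of 1 adipocyte marker 0 higher and 1 lower, beside 23.7% and 22.7% of all tested genes. Of these only 1 immune marker was above 1 TPM in all 8 samples, so that most of them were tested through the line in which they were high. Cd68, a lysosomal gene listed with macrophages, was at 91.6 ± 19.3 and 12.1 ± 2.65 TPM, and Egfl7, listed with endothelium, at 21.1 ± 8.49 and 0.130 TPM. S100a8, the other immune marker called higher, is given further on. Lower in 4T1 were the immune marker Lyz2, at 0 to 0.0434 against 1.25 to 1.97 TPM, and the endothelial marker Vwf, at 0.0920 to 0.376 against 1.59 to 2.74 TPM. The defining markers Ptprc, Pecam1 and Cdh5 averaged below 1 TPM.

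Some genes were read in 1 line only, defined as at most 3 counts in each sample of a line and at least 10 TPM in each sample of the other. There were 82 such genes in 4T1 and 41 in 67NR, which the definition fixes as differing. Cd24a, a surface glycoprotein, led in 4T1 at 233, 299.7, 316 and 255 TPM, against 0, 0.0541, 0.0483 and 0 TPM in 67NR. Its ratio was 10800 with a 95% counting interval of 2980 to 89000. Cldn23, Hdac11, Il23a, Rem2 and the milk protein gene Ltf followed, at means of 117, 109, 97.2, 87.7 and 87.6 TPM, of which Hdac11 and Ltf had 0 counts in 67NR.

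Pianp led in 67NR, at 0, 0.0238, 0 and 0.0196 TPM in 4T1 and at 119.5, 328, 401 and 117 TPM in 67NR. The 4T1 samples given CIX ranged from 0.00856 to 28.96 TPM, so that the gene was read above 10 TPM in a treated 4T1 sample. Samples 5 and 9 lay well above samples 1 and 13, and the call was lost with sample quality weights (limma adjusted p = 0.00184) and without 4T1 sample 3, 11 or 15. Scamp5, Gas1 and Stac2 came next at 124, 98.4 and 87.9 TPM. Fgf10, a growth factor that mesenchyme sends to epithelium, was at 55.7 ± 8.53 TPM in 67NR with 2 counts in the 4T1 samples together.

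Among genes read at 1 TPM or more in all 8 samples, Plet1, a surface protein of epithelial progenitors, differed most upward. It was at 218, 162, 134 and 164 TPM in 4T1 and at 1.99, 2.55, 1.52 and 1.60 TPM in 67NR, 88.2-fold higher. Limd2, the tricellular junction gene Lsr and Gsta1 followed with log2 fold changes of 6.30, 6.20 and 6.18, and then Isyna1 and Crip1, both at 5.69. For Gsta1, 92.9% of the 31-base words are shared with other genes.

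Mxra8, a matrix adhesion protein, differed most downward, at 2.63, 2.13, 3.61 and 2.13 TPM in 4T1 and at 197, 203, 187 and 171 TPM in 67NR, 72.6-fold lower. Il1rl1, the receptor of interleukin 33, was at 3.12 ± 2.05 and 177 ± 10.9 TPM, the Wnt inhibitor Apcdd1 at 2.11 ± 0.803 and 112 ± 20.2 TPM, and the stromal and progenitor antigen Cd34 at 4.10 ± 0.755 and 187 ± 9.45 TPM. Neither line overlapped the other in any of these. The purine receptor gene P2rx7 had a log2 fold change of -5.05.

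The calls were not spread evenly over the genome. On chromosome 14, 42.0% of tested genes were called higher and 14.3% lower, with a median log2 fold change of 0.48, and on chromosome 16 the shares were 36.7% and 12.2% with a median of 0.41. Chromosome 1 had 34.9% higher and 13.0% lower. Chromosome 7 leaned the other way, with 13.7% higher, 37.3% lower and a median of -0.53, and chromosome 10 had 18.9% and 33.7%. Of 13 tested mitochondrial genes 10 were lower and 0 higher, beside a mitochondrial share of counts of 0.498% to 0.926% in 4T1 and 1.34% to 1.76% in 67NR. The copy number of chromosomes was not analysed here.

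**Figure D4:**
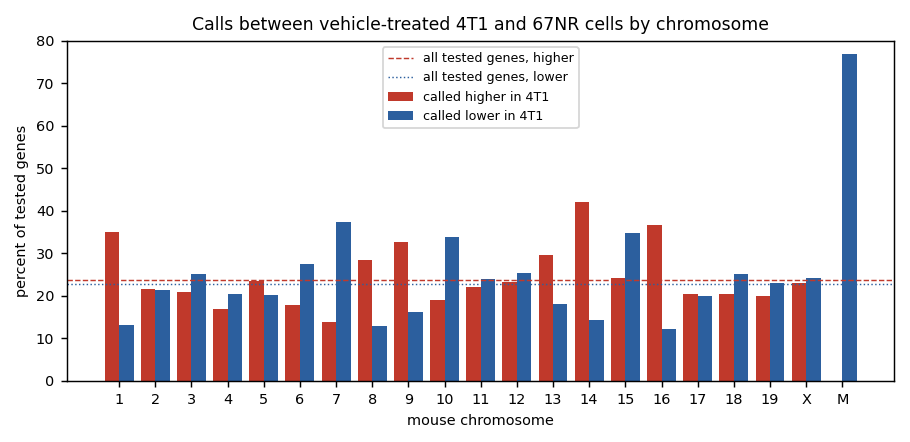
Percent of tested genes called higher (red) and lower (blue) in 4T1 on each mouse chromosome, without chromosome Y, which had 4 tested genes. The dashed and dotted lines are the shares over all tested genes, 23.7% and 22.7%, and among the bars furthest above them are those of chromosomes 1, 14 and 16 in red and of 7, 10, 15 and M in blue.

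Neighbouring tested genes called in the same direction formed 68 runs of at least 5 genes, 41 higher and 27 lower, holding 418 genes. The longest held 13 genes on chromosome 9, from 8021672 to 14645056 (GRCm38), from Cfap300 to Amotl1 and including Arhgap42 and Sesn3, with log2 fold changes of 0.83 to 9.17, all higher in 4T1. The next held 10 genes on chromosome 16, from 93711904 to 95990960, including Morc3, Ets2 and Ttc3, at 0.69 to 2.74. Runs of 9 genes followed, 5 in number, the first of them in chromosome order on chromosome 2 with Mal, Bub1 and Bcl2l11.

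The CIX-treated samples gave the same comparison in cells that were not used above. There 5123 genes were called (40.9% of those tested), 2742 higher and 2381 lower in 4T1. Genes called in both numbered 3881, of which 3853 had the same direction and 28 the opposite. The 3853 are 66.2% of the calls under vehicle and 75.2% of those under CIX. All 28 called epithelial junction and keratin genes were also called higher under CIX, and 15 of the 16 mesenchymal genes were also lower. Of 40 called interferon response genes 22 were called in the same direction, as were 7 of 17 class I genes.

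The difference between the lines changed with treatment, by the interaction term, for 1031 genes (8.22%), among them 760 (13.1%) of those called under vehicle. These included 16 of the 50 tested interferon genes, 15 of the 40 proliferation genes and 2 of the 31 epithelial genes. Pla2g4a remained uncalled, with a log2 fold change of 0.06 under CIX, and Ptgs2 had 1.52 there.

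**Figure D5:**
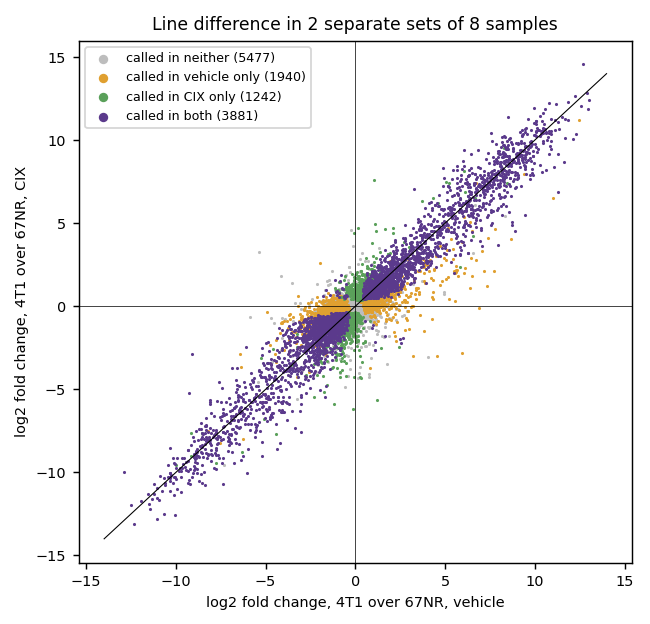
Log2 fold change of each tested gene, 4T1 over 67NR, in the vehicle samples (horizontal) and in the CIX samples (vertical), with the line of equal values. Purple points are the 3881 genes called in both sets, orange the 1940 called under vehicle only, green the 1242 called under CIX only and gray the 5477 called in neither, and the largest differences lie along the line.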

How the data were processed

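RNA of 16 cultures was sequenced with a stranded poly(A) kit on a single flowcell. The authors quantified transcripts with Salmon 0.12 (version per the labels) against Ensembl mouse transcripts and summed them to genes with tximport, and the deposited values are estimated counts, whose scaling option is not given in the sources used here. The study's methods name GRCm38 and the labels a human build, but all identifiers are mouse. Counts were rounded and scaled by trimmed mean of M values (TMM). TPM was approximated by dividing counts by annotated gene length.

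Genes with TPM of at least 1 in at least 4 of 8 vehicle samples were fitted with limma-voom (R 4.3.3, limma 3.58.1, edgeR 4.0.16), with Benjamini-Hochberg adjusted p below 0.001 called, and the fit was tested on simulated data. The study's filter, taken literally, removes genes read in 1 line only and was tried as an alternative, with edgeR, DESeq2 1.42.0, other scalings, filters and thresholds, and with each sample left out. Genes read in 1 line only were those with at most 3 counts in each sample of the other. Bounds used a floor of 3 counts per sample, or 0.122 to 0.138 CPM, and intervals (95%, exact) cover counting error only. Samples are numbered in the labels and are biological replicates per the study's methods, so p-values measure the spread between cultures of each line.

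Named genes were those the study centres on, epithelial and mesenchymal hallmarks, the 10 most abundant genes read in 1 line only, the 10 largest differences among genes read in all samples, the 5 most abundant called genes per line beyond a log2 fold change of 1, up to 4 called members per direction of each of 27 gene lists with defining members, and the members of 3 runs. Members and lists were chosen with earlier results of these data known. Xist was not analysed here. Some genes that the rule names are not reported here. Shared 31-base words were counted between transcripts of the reference annotation (GENCODE M21). Promoters are from RefSeq.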

Additional observations from a re-analysis of the deposited data

Results flagged for a closer look

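In 9 of 84 groups of 4 samples examined for the genes with printed levels, 1 sample stood far from the other 3. Chance flags about 1 in 20 groups of continuous values, but any count is flagged where the other 3 samples are at 0, as for Itga2, Plau, Cdh2 and Cdkn2a, so nothing is read from the number of flags. In 67NR sample 9 these were Krt18 (1.46 TPM), Cldn4 (0.366 TPM), Itga2 (0.0271 TPM) and Plau (0.534 TPM), each at 0 to 0.128 TPM in the other 67NR samples. In 67NR sample 13 they were S100a4 at 22200 TPM to 3 digits, against 13300 to 14500 TPM, and Pla2g4a at 255 TPM, against 45.0 to 61.0 TPM. The others were Esrp2 in 67NR sample 1 (0.342 TPM), Cdh2 in 4T1 sample 15 (0.0217 TPM) and Cdkn2a in 4T1 sample 7 (0.0632 TPM), where the values rest on a few counts.

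For 8 of the 42 genes with printed levels, the log2 difference between the lines changed with CIX by the interaction test (limma adjusted p below 0.001), given here as CIX minus vehicle, beside 8.22% of all tested genes and 13.1% of those called between the lines under vehicle. It was higher for Vim by 0.669, Twist1 by 1.05, Ptgs1 by 0.849 and Irf3 by 1.26, genes that were lower in 4T1 under vehicle. It was lower for Tlr3 (-2.59), Stat2 (-1.39) and Plet1 (-2.54), which were higher in 4T1, and for Pdgfra (-0.775), which was lower. These values share the vehicle samples with the comparison of the lines.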

How the results depend on the processing

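The count of 5821 called genes became 8904 at an adjusted p below 0.05 and 3169 when tested against a 1.5-fold change. The other tests, scalings and filters gave 4419 (study filter taken literally) to 7123 (DESeq2), and leaving out 1 sample gave 4874 to 5764. The count of 5123 under CIX became 8461 at 0.05, and 4230 to 5455 with 1 sample left out. The 1031 interaction calls became 3757 at 0.05, 2002 with DESeq2 and 1963 with sample quality weights, and 674 (without 4T1 vehicle sample 7) to 1077 with 1 sample left out. Of 243 tested named genes, 4598 alternative values kept call and direction, 163 lost the call and 0 reversed. Of the calls 51.0% were higher in 4T1, and 53.2% with library size alone. The study filter, which drops genes of 1 line, left 6 of 28 epithelial junction genes and 7 of 16 mesenchymal genes called. The median over all genes was -0.02, and 0.11 on the log2(TPM + 1) scale. No paired analysis was made, because the groups share no replicate numbers. The sample numbers cycle through line and treatment, but the labels do not say that consecutive numbers form a set. Alternatives leaving out 67NR sample 9 or 13 from list counts were chosen after seeing the data. Genes under about 3 counts per sample cannot be ranked at this depth.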

Other observations

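Further lists held genes of development and calcium binding. Of 8 tested Hox genes, which set position along the body axis, 6 were called higher in 4T1 and 1 lower, beside 23.7% and 22.7% of all tested genes, but only 3 were above 1 TPM throughout, with 1 higher and 1 lower. Hoxa10 was at 13.6 ± 2.11 TPM in 4T1 and Hoxa3 at 14.2 ± 3.90 TPM, against 0.0123 and 1.80 TPM in 67NR, and Hoxa7 was lower, at 3.86 ± 0.968 against 10.7 ± 1.12 TPM. Of 20 tested S100 and annexin genes 4 were called higher and 7 lower (55.0% called, beside 46.4% of all tested genes). S100a6 and S100a10 were at 3383 ± 645 and 435 ± 77.3 TPM in 4T1 and at 9896 ± 642 and 1451 ± 109 TPM in 67NR, and S100a16 at 0.348 against 53.7 TPM. S100a8, a gene of myeloid cells, was at 7.17 ± 3.42 TPM in 4T1 and 0.418 ± 0.236 TPM in 67NR. Of 5 tested genes of a sex chromosome list 1 was called higher and 1 lower (40.0% called, beside 46.4%). Among the genes called higher in 4T1 by more than 1 on the log2 scale, the most abundant included Npm1 and Ddb1, at means of 2027 and 1947 TPM, against 906 and 794 TPM in 67NR.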
